A study of Mus musculus with 12 samples.

Results

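Expression of 9 genes of the thick ascending limb and the distal convoluted tubule was followed in whole kidneys of postnatal day 3 (P3) mice. The genes were those named *Umod*, *Slc12a1*, *Kcnj1*, *Bsnd*, *Slc12a3*, *Pvalb*, *Egf*, *Trpm6* and *Calb1* in the count tables, which list 24062 gene symbols, and all 9 passed the filter on low counts in every comparison. RNA of 12 kidneys was sequenced, 3 in each of 4 groups, and each group came from 2 litters.

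The first experiment compared *LIN28B Wt1* kidneys with littermate controls, both labelled C57BL/6. *LIN28B Wt1* mice carry a human *LIN28B* transgene under a doxycycline-responsive promoter (*TRE-LIN28B*), a *lox-STOP-lox-rtTA* allele and *Wt1-Cre*, and the controls are labelled WT. The labels of the sequenced kidneys do not state when doxycycline was given. The second experiment compared *let-7* KO kidneys, which lack *let-7a1*, *let-7d* and *let-7f1* in every cell, with WT littermates, both labelled Mixed (CD1 and C57BL/6). As models they have limits: *Wt1-Cre* is active in the mesenchyme that forms nephrons and in cortical stroma and podocytes, so the transgene is not confined to the tubule segments described here, and *let-7* KO mice keep the other *let-7* genes. Strain, colony and experiment cannot be told apart between the 2 control groups.

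The thick ascending limb of the loop of Henle reabsorbs salt without water and so dilutes the urine. *Slc12a1* encodes NKCC2, the sodium-potassium-chloride cotransporter that is the target of loop diuretics. *Kcnj1* encodes ROMK, the channel that returns potassium to the lumen, and *Bsnd* encodes barttin, the subunit that basolateral chloride channels need. *Umod* encodes uromodulin, the most abundant protein of normal urine. In the distal convoluted tubule, *Slc12a3* encodes NCC, the sodium-chloride cotransporter blocked by thiazides, and *Trpm6* encodes a magnesium channel of the apical membrane. *Pvalb* and *Calb1* encode the calcium-binding proteins parvalbumin and calbindin-D28k, of which calbindin extends into the connecting tubule. *Egf* encodes the epidermal growth factor precursor, made by these segments. The cells of the thick limb and distal convoluted tubule descend from nephron progenitors. The kidneys were sequenced whole, so the counts do not place *Calb1* or any other transcript in these segments alone.

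In the GENCODE M21 annotation of GRCm38, each of the 9 was a protein-coding gene. The thick limb genes were *Umod* (chr7:119462711-119479282, minus strand, 11 exons), *Slc12a1* (chr2:125152505-125230002, plus strand, 27 exons), *Kcnj1* (chr9:32372493-32399197, plus strand) and *Bsnd* (chr4:106483456-106492283, minus strand). The distal tubule genes were *Slc12a3* (chr8:94329201-94366214, plus strand, 24 exons), *Pvalb* (chr15:78191114-78206400, minus strand), *Egf* (chr3:129677565-129755316, minus strand), *Trpm6* (chr19:18749983-18892511, plus strand) and *Calb1* (chr4:15881264-15908064, plus strand).

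LIN28 proteins block the maturation of *let-7* miRNAs, and *let-7* represses messages through sites in their 3′ UTRs that pair with its seed. The mature miRNAs of the 3 deleted genes are shown because both models act on them. They share the seed GAGGUAG (bases 2 to 8, in capitals) and are given as in RefSeq, from a cluster on chromosome 13 of GRCm38.p6.
mmu-let-7a-5p: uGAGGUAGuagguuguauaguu
mmu-let-7d-5p: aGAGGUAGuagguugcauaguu
mmu-let-7f-5p: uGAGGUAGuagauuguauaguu

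The longest 3′ UTR among the protein-coding transcripts of each gene was searched on its sense strand for 2 motifs. They were CTACCTC, which pairs with the whole seed, and TACCTCA, which pairs with bases 2 to 7 followed by an A. These 2 motifs overlap in 6 letters, and no member carried the 8-base CTACCTCA. *Bsnd* held 1 CTACCTC, at bases 1378 to 1384 of its 1590-base 3′ UTR. *Trpm6* and *Calb1* each held 1 TACCTCA, at bases 295 to 301 of 374 and at bases 2842 to 2848 of 3301. The matches are given in capitals with 10 bases on each side, since they are the only ones among the 9 genes. Of all 20043 genes with a 3′ UTR, 9.28% held CTACCTC. The share with TACCTCA was not computed, so the matches in *Trpm6* and *Calb1* have no background to be set against. A match is a description of these letters and not of a working site.
*Bsnd*: tggggcatttCTACCTCttcagtgaag
*Trpm6*: ctttcctctaTACCTCAttgcttcagc
*Calb1*: gatttgaacaTACCTCActaaatattc

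*Umod* and *Slc12a3* were the members that fell in *LIN28B Wt1* kidneys at an adjusted p below 0.05, so the 250 bases before their RefSeq starts are shown, 5′ to 3′ on the gene's strand (GRCm38.p6, chr7:119479263-119479512 on the minus strand and chr8:94328958-94329207 on the plus strand). On both strands, these windows were searched for GTTAAT, a core of the sequence bound by HNF1 factors, AAGGTCA, bound by oestrogen-related receptors, GCCNNNGGC, bound by AP-2 factors, and the TATA box TATAAA. Capitals mark the matches. *Umod* held GTTAAT beginning 202 bases before the start, a motif found in 6.43% of 32851 windows of this length. *Slc12a3* held GCCNNNGGC beginning 73 bases before the start and TATAAA beginning 32 bases before it, found in 13.7% and 12.4% of windows. AAGGTCA, found in 4.08%, was in neither.
*Umod*: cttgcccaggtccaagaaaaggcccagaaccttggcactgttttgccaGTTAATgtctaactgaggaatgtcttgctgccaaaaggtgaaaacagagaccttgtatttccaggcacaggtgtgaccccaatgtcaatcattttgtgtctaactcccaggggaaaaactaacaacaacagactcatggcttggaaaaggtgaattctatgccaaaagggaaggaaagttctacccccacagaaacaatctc
*Slc12a3*: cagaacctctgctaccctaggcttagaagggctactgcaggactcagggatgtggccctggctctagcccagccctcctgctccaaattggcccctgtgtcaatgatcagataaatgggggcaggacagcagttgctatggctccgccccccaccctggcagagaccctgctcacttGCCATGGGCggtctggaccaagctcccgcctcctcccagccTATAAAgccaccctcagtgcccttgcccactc

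Counts assigned to genes summed to between 39926235 and 61872736 per kidney, so that 3 counts, taken as the floor, stand for 0.0485 to 0.0751 CPM (counts scaled to the size of the library). *Hmga2*, a target of *let-7*, was at 155.9 to 207 CPM in *LIN28B Wt1* kidneys against 12.4 to 16.4 in their controls, and at 12.3 to 31.6 CPM in *let-7* KO kidneys against 7.72 to 10.4 in theirs. Mouse *Lin28b* was at 1.17 to 4.19 CPM in *LIN28B Wt1* kidneys and at 0 to 0.628 in their controls. The paper reports endogenous *Lin28b* mRNA as unchanged in *LIN28B Wt1* kidneys, and the source of these counts was not tested. The files have no row for the human transgene. The hairpin row *Mirlet7d* had 0 counts in all 3 *let-7* KO kidneys and 0, 19 and 35 in their WT littermates, so the WT kidney at 0 cannot be checked by it. *LIN28B Wt1* kidney 3 and *let-7* KO kidney 1 stood farther from their 2 group mates, and results that rest on them are given with and without them.

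Levels of different genes were compared as CPM per kilobase of the longest protein-coding transcript, after scaling all 12 kidneys together by TMM. In the C57BL/6 controls, *Umod* (144 ± 12.2, SD, n = 3), *Calb1* (138 ± 20.4) and *Slc12a1* (99.3 ± 32.5) were at the top, and each overlapped the next in order. *Kcnj1* (30.8 ± 8.21), *Bsnd* (21.3 ± 3.05) and *Slc12a3* (20.5 ± 2.498) formed a middle tier, again with overlapping ranges between neighbours. *Pvalb* (2.59 ± 0.804), *Egf* (2 ± 0.745) and *Trpm6* (0.797 ± 0.365) were lowest, and the range of *Pvalb* lay apart from that of *Slc12a3*. In *LIN28B Wt1* kidneys the order differed in the middle tier, where *Bsnd* (20.9 ± 3.18) lay above *Kcnj1* (15.7 ± 2.72) and *Kcnj1* above *Slc12a3* (5.29 ± 0.116), with no overlap between them. In the mixed-strain WT kidneys *Pvalb* ranked just below *Slc12a1*, at 48.4 ± 18.3 per kilobase, and overlapped *Kcnj1* at 38.9 ± 4.37.

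The first comparison asked how *LIN28B* expression in the *Wt1* lineage changed transcripts of the P3 kidney. *Slc12a3* and *Umod* fell, *Slc12a3* to 25.9% of its control level and *Umod* to 42.8%. *Bsnd* was at 98.3% of control, with groups that overlapped. Of the 9 genes, 2 had a Benjamini-Hochberg adjusted p below 0.05 in edgeR's quasi-likelihood test, both lower, against 0.766% of the 15793 genes tested that were lower at that threshold. At an unadjusted p below 0.01, 6 were lower, against 4.08% of all genes. In the same 6 every *LIN28B Wt1* kidney lay below every control, which held for 13.5% of all genes. The log2 fold change was negative for all 9, with a median of -0.98, and the median over all genes tested was -0.02. These counts and the levels by kidney are whole-kidney values, in which fewer cells of a type and less RNA per cell cannot be told apart.

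**Figure D1:**
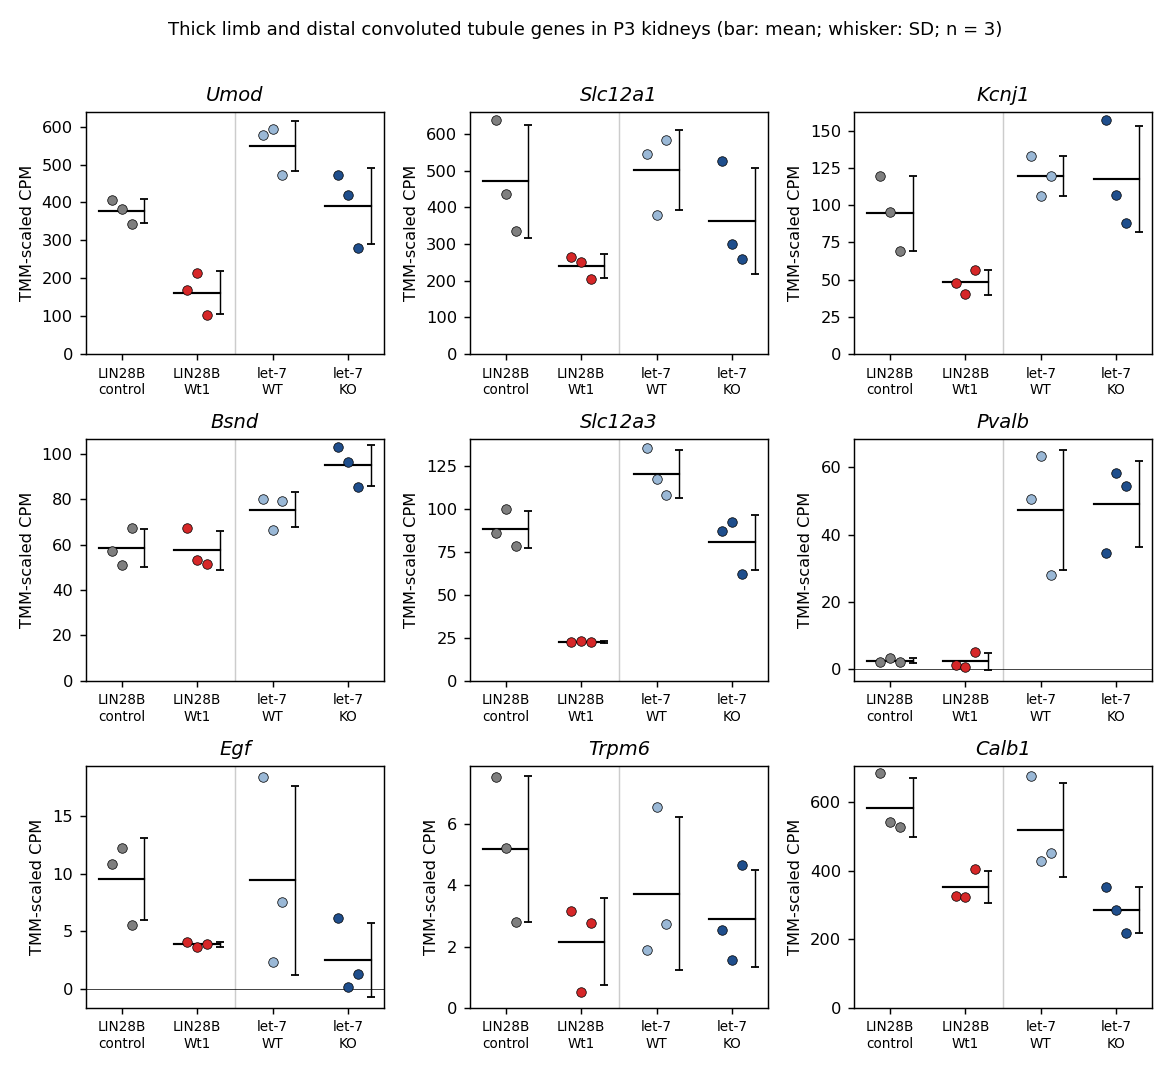
TMM-scaled CPM (vertical axis, from 0) of each of the 9 genes in every kidney of the 4 groups (horizontal axis), with points for kidneys 1 to 3 from left to right, a bar at the mean and a whisker for the SD (n = 3). *Slc12a3* sat at 22.4 to 23.4 CPM in *LIN28B Wt1* kidneys and at 78.8 to 99.97 in their controls, and *Pvalb* was at 0.561 to 5.15 CPM in the C57BL/6 experiment and at 27.97 to 63.4 in the mixed-strain one.

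Among the distal convoluted tubule genes, *Slc12a3*, the thiazide-sensitive cotransporter, was at 86.2, 99.97 and 78.8 CPM in control kidneys 1 to 3 and at 22.4, 23.4 and 22.6 CPM in *LIN28B Wt1* kidneys 1 to 3. The mutant kidneys were nearly equal to each other, and the lowest control was well above the highest of them. The log2 fold change was -1.95 (SE 0.16, adjusted p = 0.000938), a 3.86-fold lower level. With 1 kidney left out at a time it ran from -2.01 to -1.85, with an adjusted p of 0.000712 to 0.0156.

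*Calb1* was at 683.4, 541 and 527.6 CPM in the controls and at 325, 323.4 and 405.1 CPM in *LIN28B Wt1* kidneys. The groups did not overlap, and kidney 3 was the highest of the mutants. The log2 fold change was -0.73 (SE 0.15), with an unadjusted p below 0.01 and an adjusted p of 0.0573, just short of the threshold. *Egf* was at 10.9, 12.2 and 5.502 CPM against 4.04, 3.63 and 3.93 CPM, a log2 fold change of -1.30 (SE 0.38, adjusted p = 0.122). Its control kidney 3 lay closer to the mutants than to the other controls, and the unadjusted p lay below 0.01 without that kidney but not without any other kidney (adjusted p 0.0724 to 0.434) nor with a replicate block on litter (adjusted p = 0.188).

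*Trpm6*, the magnesium channel, was at 7.55, 5.21 and 2.80 CPM in controls and at 3.15, 0.523 and 2.78 CPM in *LIN28B Wt1* kidneys. These ranges overlapped, and the log2 fold change of -1.26 had an SE of 0.69 (adjusted p = 0.381). *Pvalb* was at 2.07, 3.44 and 2.09 CPM in controls against 1.23, 0.561 and 5.15 CPM. *LIN28B Wt1* kidney 3 held more *Pvalb* than any control and the other mutants less than any, so the log2 fold change of -0.12 (SE 0.81, adjusted p = 0.965) covers opposite deviations, and without that kidney it was -1.51.

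Among the thick limb genes, *Umod* was at 406, 383.2 and 342.6 CPM in control kidneys 1 to 3 and at 169.5, 213.4 and 101.7 CPM in *LIN28B Wt1* kidneys 1 to 3. The groups lay apart, and mutant kidney 3 was the lowest. The log2 fold change was -1.23 (SE 0.23, adjusted p = 0.0409), a 2.34-fold lower level. *Umod* kept p below 0.01 without any 1 kidney but passed the adjusted threshold only without *LIN28B Wt1* kidney 3 (log2 fold change -0.99, adjusted p = 0.00316), and without control kidney 1, 2 or 3 or mutant kidney 1 or 2 the adjusted p was 0.0501 to 0.225.

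The cotransporter *Slc12a1* was at 638.8, 437.4 and 335.6 CPM in controls and at 264, 250.8 and 203.2 CPM in *LIN28B Wt1* kidneys, a log2 fold change of -0.98 (SE 0.22, adjusted p = 0.0674). Its control level varied 1.90-fold from the lowest to the highest kidney. *Kcnj1*, the potassium channel that works beside it, was at 119.6, 95.4 and 69.1 CPM against 48.0, 40.01 and 56.8 CPM, with a log2 fold change of -0.97 (SE 0.23, adjusted p = 0.0693). Both genes lay near 51% of control in the fit (50.9% and 51.1%), with no overlap of the groups.

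*Bsnd* was at 57.3, 50.9 and 67.6 CPM in controls and at 67.6, 53.3 and 51.7 CPM in *LIN28B Wt1* kidneys. The values were interleaved, and the log2 fold change was -0.02 (SE 0.18, adjusted p = 0.966). Leaving out each kidney gave from -0.15 to 0.11.

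With *LIN28B Wt1* kidney 3 left out, 5 members had an adjusted p below 0.05, namely *Umod*, *Slc12a1*, *Kcnj1*, *Slc12a3* and *Calb1*. Over all genes the share called in either direction also rose in that fit, to 12.8% from 1.23%. Control kidneys 1 and 2 held 59.3 and 65.3 CPM of 4 summed adipose markers, against 7.61 in control kidney 3 and 0 to 9.49 in the mutants, and without both of them no member passed the adjusted threshold and 1 had p below 0.01 (*Slc12a3*, log2 fold change -1.78, adjusted p = 0.248). Over all genes 0.0119% passed the adjusted threshold in that fit and 0.878% had p below 0.01, in either direction. It has 1 control kidney, which is taken to vary like the mutants.

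**Figure D2:**
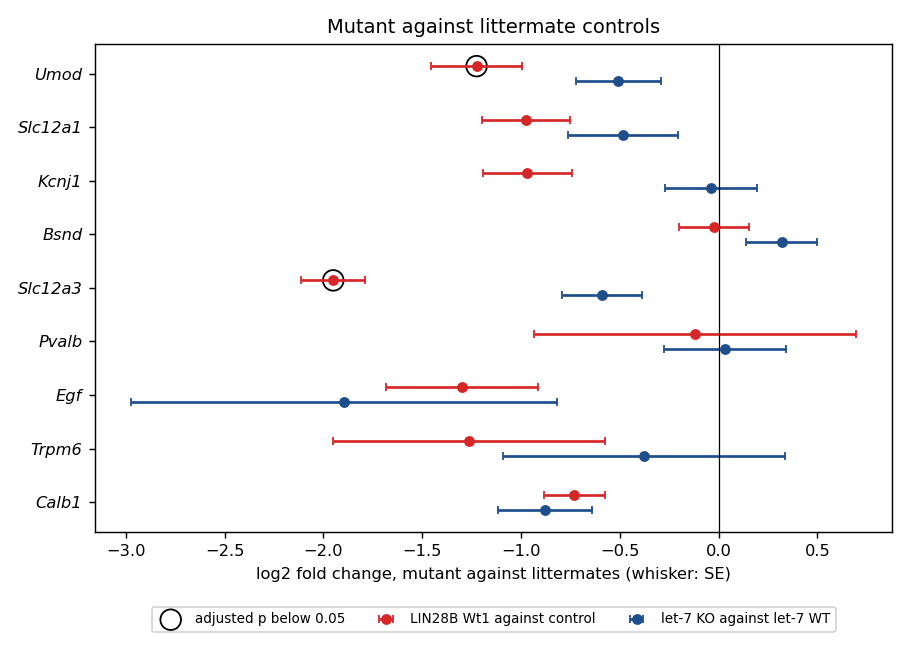
Log2 fold change (horizontal axis) of each of the 9 genes against littermate controls, with whiskers for the SE, in *LIN28B Wt1* (red) and *let-7* KO (blue) kidneys, and with a black ring where the adjusted p was below 0.05. *Slc12a3* and *Umod* carry rings in *LIN28B Wt1*, no gene does in *let-7* KO, and *Bsnd* lies near 0 in the first and at 0.32 in the second.

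The second comparison asked how loss of 3 *let-7* genes changed the same transcripts. None of the 9 genes passed an adjusted p of 0.05 in edgeR, where 0.0194% of 15500 genes were lower at that threshold, and 1 passed in DESeq2 (*Calb1*, adjusted p = 0.021), as did 1.31% of all genes in either direction. At an unadjusted p below 0.05 there were 3 (*Calb1*, *Slc12a3* and *Umod*), all lower, where 5.56% of all genes were. *Calb1* was also the 1 member with an unadjusted p below 0.01, and 1.63% of all genes were lower at that threshold. In 3 genes (*Umod*, *Slc12a3* and *Calb1*) every *let-7* KO kidney lay below every WT kidney, against 8.79% of all genes. In *Bsnd* every KO kidney lay above, against 7.87%. The log2 fold change was negative for 7 of 9 genes, with a median of -0.48, and the median over all genes was -0.02.

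*Calb1* was at 676.8, 427.9 and 451.6 CPM in WT kidneys 1 to 3 and at 351.7, 285.5 and 218.3 CPM in *let-7* KO kidneys 1 to 3. Its log2 fold change was -0.88 (SE 0.24, adjusted p = 0.362). Without WT kidney 1, which was the highest, or without KO kidney 2 or 3, its unadjusted p no longer lay below 0.01, and the log2 fold change was -0.64, -0.87 and -0.71. *Slc12a3* was at 135.4, 117.5 and 108.1 CPM in WT and at 87.3, 92.5 and 62.4 CPM in KO kidneys, a log2 fold change of -0.59 (SE 0.20, adjusted p = 0.376). In the fit with a replicate block on litter the value was -0.61 with an unadjusted p below 0.01, so that 2 members lay below that threshold, as did 1.86% of all genes in either direction.

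*Umod* was at 579, 593.1 and 473.5 CPM in WT and at 472.1, 418.5 and 278.8 CPM in KO kidneys. KO kidney 1 lay just under the lowest WT kidney, and the log2 fold change was -0.51 (SE 0.22, adjusted p = 0.435). *Slc12a1* was at 546.1, 378.4 and 582.9 CPM against 527.1, 300.3 and 257.9 CPM, with overlapping groups and a log2 fold change of -0.48 (SE 0.28, adjusted p = 0.563). Without KO kidney 1 it was -0.88 with an unadjusted p below 0.01 (adjusted p = 0.0829). *Kcnj1* was at 132.9, 106 and 119.7 CPM against 157.1, 106.9 and 88.1 CPM, and its log2 fold change was -0.04 (SE 0.23, adjusted p = 0.969). KO kidney 1 held the most of it of all kidneys in that experiment.

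*Bsnd*, the chloride channel subunit, was at 80.2, 66.6 and 79.5 CPM in WT and at 103.3, 96.5 and 85.4 CPM in KO kidneys. The groups lay apart, but the log2 fold change of 0.32 (SE 0.18, adjusted p = 0.549) did not pass either threshold. *Pvalb* was at 50.5, 63.4 and 27.97 CPM against 34.6, 58.3 and 54.4 CPM, a log2 fold change of 0.03 (SE 0.31, adjusted p = 0.982). *Trpm6* was at 1.87, 6.56 and 2.75 CPM against 2.53, 1.55 and 4.65 CPM, a log2 fold change of -0.38 (SE 0.72, adjusted p = 0.889). Neither gene separated the genotypes.

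*Egf* varied most between kidneys of a group. Its WT kidneys held 18.4, 2.35 and 7.54 CPM and its KO kidneys 6.17, 0.149 and 1.25 CPM, the lowest of which rests on 8 counts. The ranges overlapped, and the log2 fold change of -1.90 had an SE of 1.08 (adjusted p = 0.554). Leaving out each kidney gave from -3.80 to -0.96. The lowest of these was without KO kidney 1, in which fit 3 members (*Egf*, *Slc12a1* and *Calb1*) had an unadjusted p below 0.01, as did 8.12% of all genes in either direction (2.73% with all 6 kidneys).

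Kidneys differed in how level depended on transcript length. The slope of a kidney's log2 CPM against log2 transcript length, relative to the mean of all kidneys, was -0.17 to 0.02 in *let-7* KO and -0.06 to 0.12 in WT kidneys, with overlapping ranges. With this slope as a covariate, *Slc12a1* had a log2 fold change of 0.07, *Kcnj1* of 0.30 and *Pvalb* of -0.54, all reversed in sign, and *Calb1* of -0.58, no longer at an unadjusted p below 0.01 (adjusted p = 0.64). In the *LIN28B* experiment the slopes overlapped too (-0.07 to 0.11 in mutants and -0.02 to 0.12 in controls), and with the covariate 4 members passed the adjusted threshold, as did 5.74% of all genes in either direction.

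**Figure D3:**
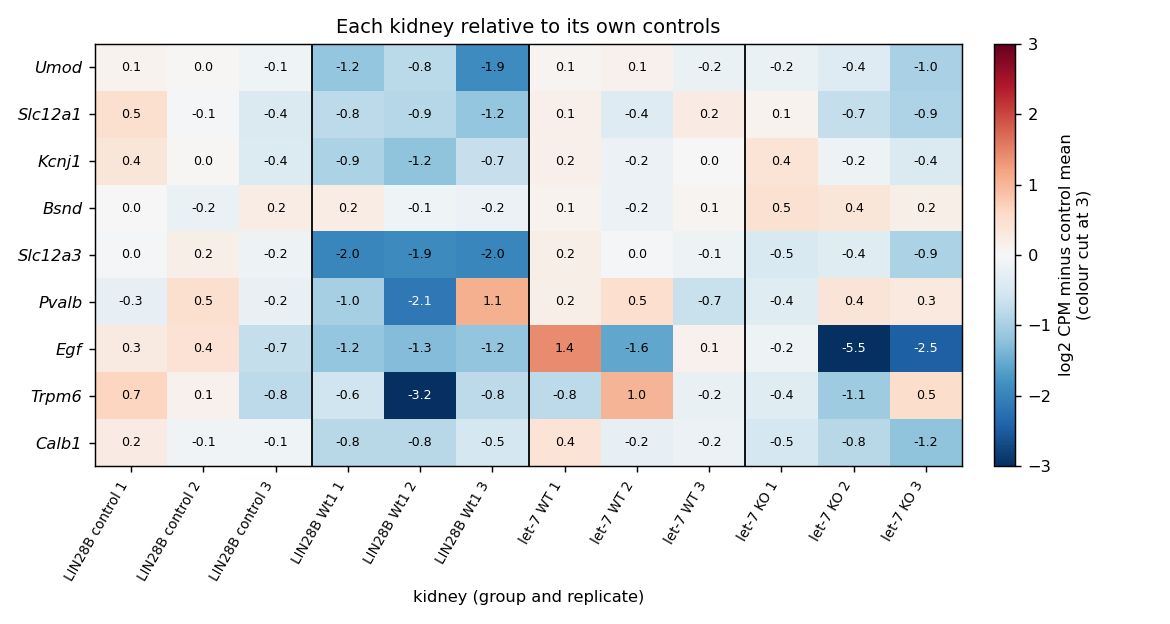
Log2 CPM of each gene (rows) in each kidney (columns) minus the mean log2 CPM of the 3 controls of its own experiment, written in each cell and coloured from blue (lower) to red (higher), with colours saturated at 3. *Slc12a3* is about 2 log2 units down in all 3 *LIN28B Wt1* kidneys. *Trpm6* differs widely between kidneys of a group, as do *Egf* in the *let-7* experiment and *Pvalb* in *LIN28B Wt1* kidneys.

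Whether the models differed was tested by an interaction term fitted to the 12 kidneys. None of the 9 genes passed an adjusted p of 0.05 in edgeR, where 0.00602% of 16598 genes did in either direction, and *Slc12a3* was the 1 member with p below 0.01 (1.04% of all genes had a lower value in *LIN28B Wt1* at that threshold). At an unadjusted p below 0.05 there were 3 (*Slc12a3*, *Kcnj1* and *Umod*), all lower in *LIN28B Wt1*, where 3.68% of all genes were. For *Slc12a3* the log2 fold change was lower by a difference of -1.38 (SE 0.24, adjusted p = 0.178) in *LIN28B Wt1* than in *let-7* KO, and the adjusted p was 0.000151 in DESeq2. *Kcnj1* followed with a difference of -0.95 (SE 0.33, adjusted p = 0.671). For *Calb1* the difference was 0.13 (SE 0.29, adjusted p = 0.9999), and for *Bsnd* it was -0.36 (SE 0.24, adjusted p = 0.904). These values do not show that the remaining genes responded alike.

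The baseline of the 2 control groups differed for 1 member. *Pvalb* was at 2.53 ± 0.785 CPM (SD, n = 3) in the C57BL/6 controls and at 47.3 ± 17.9 CPM in the mixed-strain WT kidneys, an 18.7-fold difference (log2 4.23, SE 0.64, adjusted p = 0.00566). At that threshold 0.404% of all 16598 genes were higher in the mixed-strain controls. Without C57BL/6 control kidney 1, the log2 difference was 4.10 and the adjusted p was 0.0547. *Pvalb* is also a gene of fast skeletal muscle, and 6 summed muscle markers were at 8.36 to 12.1 CPM in the C57BL/6 controls and 5.40 to 9.64 CPM in the mixed-strain WT kidneys; their part in the difference was not tested. The mutants lay near their own littermates, with 2.31 ± 2.48 CPM in *LIN28B Wt1* and 49.1 ± 12.7 CPM in *let-7* KO kidneys. *Umod* and *Slc12a3* were also higher in every mixed-strain control than in any C57BL/6 control (9.38% of all genes were), by log2 differences of 0.54 (SE 0.24, adjusted p = 0.486) and 0.45 (SE 0.17, adjusted p = 0.387), neither of which passed.

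Ratios of 2 genes' counts within a kidney, which do not depend on library scaling, were chosen after the values above had been seen. The ratio of *Slc12a3* to *Slc12a1* was 0.135, 0.229 and 0.235 in C57BL/6 controls and 0.0851, 0.0933 and 0.111 in *LIN28B Wt1* kidneys. Every mutant kidney was lower, and the exact permutation test (two-sided, 3 against 3) gave p = 0.1, the smallest it can give (0.15 adjusted over the 6 ratio tests computed). In the *let-7* experiment this ratio was 0.239 ± 0.0712 in KO and 0.248 ± 0.0626 in WT kidneys (exact permutation p = 0.7). *Bsnd* to *Slc12a1* was 0.241 ± 0.0248 against 0.136 ± 0.0583 in *LIN28B Wt1*, and 0.283 ± 0.0755 against 0.153 ± 0.0204 in *let-7* KO, with the mutants above every control in both (exact permutation p = 0.1 each). The ratios were not adjusted for transcript length (4740 bases for *Slc12a1*, 2756 for *Bsnd*). With the length slope as a covariate, the log2 fold changes in *let-7* KO were 0.07 for *Slc12a1* (-0.48 without it) and 0.51 for *Bsnd* (0.32 without it). In *LIN28B Wt1* they were -0.88 (-0.98 without it) and -0.12 (-0.02 without it).

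**Figure D4:**
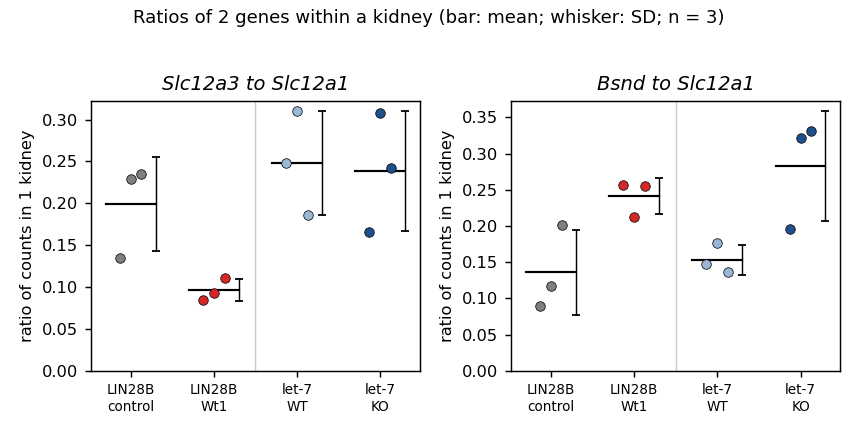
Ratio of 2 genes' counts in the same kidney (vertical axis, from 0) for 2 pairs of genes in the 4 groups (horizontal axis), with points for kidneys, a bar at the mean and a whisker for the SD (n = 3). *Slc12a3* to *Slc12a1* is lower in each *LIN28B Wt1* kidney than in each control (0.0851 to 0.111 against 0.135 to 0.235), and *Bsnd* to *Slc12a1* is higher in each mutant kidney than in each of its littermates.

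Other genes that act in these segments were read from lists. Of 10 genes of thick limb transport and sensing, 9 had a negative log2 fold change in *LIN28B Wt1* kidneys (median -0.84), and 2 fell at an adjusted p below 0.05. These were *Cldn10*, a claudin of the paracellular path (105 ± 19.2 against 190.7 ± 10.8 CPM, log2 fold change -0.86, adjusted p = 0.037), and *Ptger3*, a prostaglandin E2 receptor (6.82 ± 2.25 against 20.5 ± 1.72 CPM, log2 fold change -1.59, adjusted p = 0.0349). In *let-7* KO kidneys none of the 10 passed, and *Cldn10* was at 267.6 ± 28.6 against 249.8 ± 47.4 CPM (log2 fold change 0.08, adjusted p = 0.914). *Maged2* was the gene of the list that was higher in *LIN28B Wt1*, at 900.5 ± 52.65 against 657.9 ± 50.16 CPM (log2 fold change 0.45, adjusted p = 0.0842). It was also higher in *let-7* KO kidneys (log2 fold change 0.54, adjusted p = 0.362). Its unadjusted p lay below 0.01 in both models.

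Of 7 genes of magnesium and potassium handling, 6 were tested and none passed in either model (medians -0.51 for *LIN28B Wt1*, -0.54 for *let-7* KO). *Kcnj10*, the basolateral potassium channel of the distal convoluted tubule, stood at -0.98 on the log2 scale (adjusted p = 0.157) in *LIN28B Wt1*, and *Kcnj16*, which pairs with it, at -0.73 (adjusted p = 0.0722). In the 6 genes of the WNK-SPAK pathway, the kinases and ligases that set NCC phosphorylation, the median was 0.01 and none passed. *Wnk4* differed from control by -0.64 on the log2 scale (adjusted p = 0.129) and *Klhl3* by -0.21 (adjusted p = 0.941). The sodium pump subunit *Atp1b1* differed by -0.56 (adjusted p = 0.0573).

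Of 11 genes of calcium and sodium handling in the connecting tubule, 2 fell in *LIN28B Wt1* kidneys (median of the list -0.50). They were *Vdr*, the vitamin D receptor (29.2 ± 3.17 against 59.2 ± 7.55 CPM, log2 fold change -1.02, adjusted p = 0.0306), and *Sgk1*, an aldosterone-induced kinase (122.3 ± 16.8 against 205.4 ± 16.4 CPM, log2 fold change -0.74, adjusted p = 0.0496). In *let-7* KO kidneys none passed, and *Vdr* differed by -0.79 on the log2 scale (adjusted p = 0.362). Of 4 thin limb genes, the urea transporter *Slc14a2* fell in *LIN28B Wt1*, from 37.4 ± 11.9 to 9.18 ± 0.322 CPM (log2 fold change -2.02, adjusted p = 0.00804). None of 11 distal nephron transcription factors passed in either model (medians -0.40 and -0.43). *Esrrb* was at 1.14 ± 0.825 against 4.44 ± 0.559 CPM in *LIN28B Wt1* (adjusted p = 0.164), and *Sall3* differed by -0.69 on the log2 scale (adjusted p = 0.588).

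**Figure D5:**
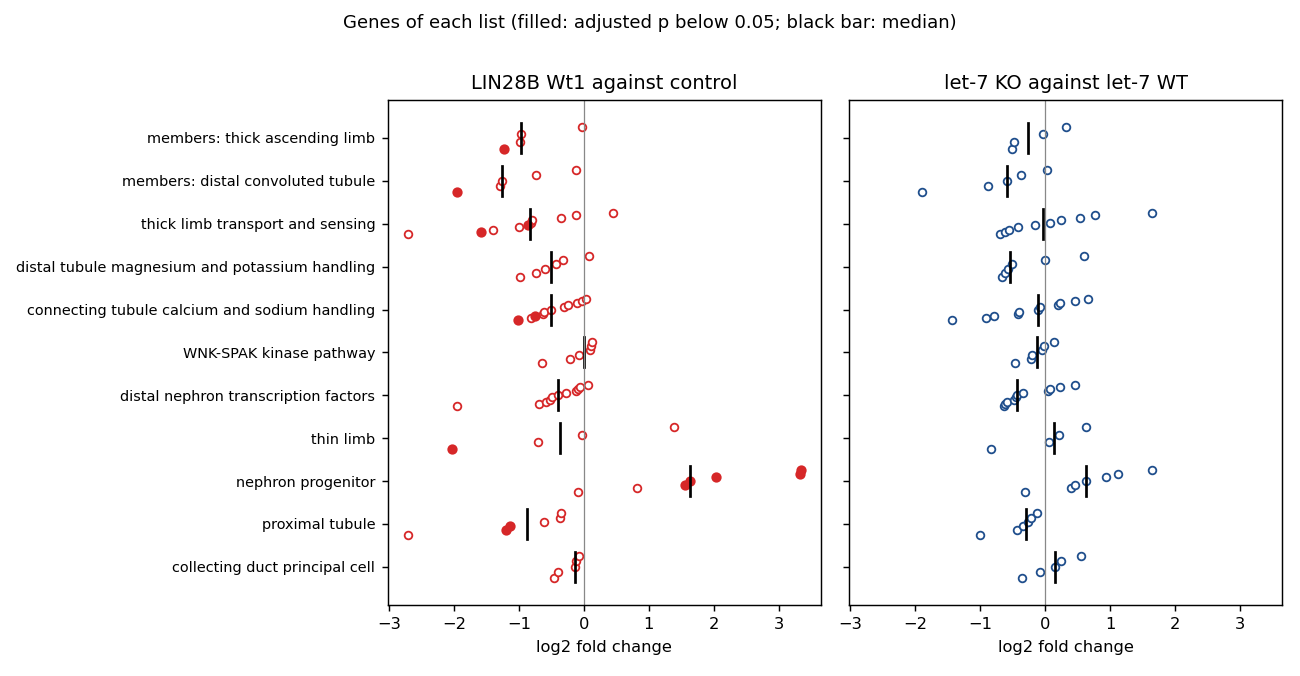
Log2 fold change (horizontal axis) of each tested gene of the lists (rows) in *LIN28B Wt1* (left) and *let-7* KO (right) kidneys, with filled points at an adjusted p below 0.05 and a black bar at the list's median. The thick limb and distal convoluted tubule members have medians of -0.97 and -1.26 on the left and of -0.26 and -0.59 on the right, and 6 of 7 nephron progenitor genes lie above 0 on the left panel, with a list median of 1.63.

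Markers of other cells moved with genotype beside these genes. In *LIN28B Wt1* kidneys, 7 nephron progenitor markers summed to 405 to 557.9 CPM against 177.7 to 209.1 in controls, and 5 of the 7 rose at an adjusted p below 0.05, where 0.462% of all genes were higher. Those with the highest fold change were *Six2* (log2 fold change 3.35), *Cited1* (3.33) and *Eya1* (2.04). The 6 proximal tubule markers summed to 1004 to 1175 CPM against 2156 to 2186, and 2 fell, *Slc34a1* (log2 fold change -1.20, adjusted p = 0.000977) and *Slc27a2* (-1.14, adjusted p = 0.00711), while *Slc5a2* stood at -2.71 (adjusted p = 0.0503). The 5 intercalated cell markers summed to 123.4 to 155.5 CPM against 238.5 to 293.1, the 4 endothelial markers to 203.5 to 218.4 against 289.2 to 329.5, and the 3 immune markers found to 37.8 to 47.7 against 63.6 to 69.9, all without overlap. The 5 principal cell markers of the collecting duct overlapped (954.8 to 1587 against 1423 to 1669 CPM), as did stroma (930.2 to 1111 against 974.5 to 1085) and podocyte markers (212 to 238.3 against 233.3 to 341.2). In *let-7* KO kidneys, proximal tubule markers summed to 2227 to 2577 CPM against 2941 to 3447, intercalated cell markers to 190.7 to 207.5 against 223 to 286.7 and stroma markers to 1057 to 1365 against 745.3 to 968.5, without overlap. Progenitor markers summed to 171.3 to 185.2 against 126.9 to 200.6 and overlapped, as did principal cell, podocyte, endothelial and immune markers. These sums are weighted towards the most abundant genes. By gene, 1 of the 7 progenitor markers had a negative log2 fold change in *let-7* KO kidneys, with a list median of 0.63. Of the 5 stroma markers, 3 were negative, with a median of -0.03. No gene of these 2 lists had an adjusted p below 0.05 in that comparison. The part of these shifts in the values of the 9 genes was not tested.

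Among the 9 genes, deviations from the group means over the 12 kidneys were positively correlated in 27 of 36 pairs, with a median Pearson r of 0.186. The highest was *Kcnj1* with *Calb1* (0.816) and the lowest *Umod* with *Pvalb* (-0.663). These kidneys share litters and library scaling. Among 14055 other genes, the one most like each member by Pearson r of log2 CPM over the 12 kidneys, centred within each experiment, was *Ugt1a2* for *Slc12a3* (0.989), *Nudt4* for *Slc12a1* (0.968), *Clptm1* for *Calb1* (0.968), *Kctd7* for *Egf* (0.962) and *Tmem184a* for *Umod* (0.955). It was *Timp2* for *Kcnj1* (0.944), *Adcy5* for *Pvalb* (0.932), *Plekhh3* for *Trpm6* (0.925) and *Sec13* for *Bsnd* (0.918). These coefficients include the difference between mutants and controls and are the highest of many.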

How the data were processed

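RNA-seq libraries of 12 whole P3 kidneys (SMARTer Ultra Low kit) were analysed from the raw read counts that the authors deposited for each gene symbol, in separate files for the kidneys. The submitters' processing notes name cutadapt, TopHat2 2.0.9, Bowtie2, SAMtools 0.1.19, HTSeq and mm10. The annotation release, strand setting and treatment of reads shared between genes are not given in the sources used here. The members and gene lists were chosen with earlier results of these data known.

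Each model was fitted on its own 6 kidneys in R 4.3.3 with edgeR 4.0.16, using filterByExpr (10 counts at least, 15 in total), TMM scaling, the quasi-likelihood test and Benjamini-Hochberg adjustment over all genes tested. The contrast of the models and that of the control groups used a fit of 12 kidneys. "Rose" and "fell" mean an adjusted p below 0.05, and p below 0.01 is the study's threshold. The SE was taken as the size of the log2 fold change over the root of F. CPM per kidney were computed with TMM factors over 12 kidneys. The floor and precision cover counting error only. Groups and litters came from the sample labels, and kidneys 1 and 2 shared a litter. Kidneys of 1 litter did not deviate together across genotypes (mean r of deviations -0.038 in the *LIN28B* and -0.009 in the *let-7* experiment, against 0.048 and 0.012 between litters). No kidneys of a group agreed within sampling noise (chi-square per gene 31.6 to 239.1).

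Transcript lengths, positions and 3′ UTRs came from GENCODE M21, in which 98.3% of symbols were matched, and promoters and miRNAs from RefSeq (GRCm38.p6). The promoter table held 7 of the 9 members. Named beside the members were, from each list, genes with an adjusted p below 0.05 in either model or else the 2 with the largest change in *LIN28B Wt1*, up to 3 progenitor and 3 proximal tubule markers, and the most correlated gene. *Maged2* was named besides, as the gene of its list that was higher in *LIN28B Wt1*. The ratios were added after values were seen, and 1 of the 3 gene pairs is not reported here. Alternatives were DESeq2 1.42.0, no filter, a strict filter (1 CPM or more in all kidneys), upper-quartile scaling, a block on litter, a transcript-length covariate, a single fit of 12 kidneys and each kidney left out. The scripts were tested on simulated data.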

Additional observations from a re-analysis of the deposited data

How the results depend on the processing

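For *LIN28B Wt1*, the number of members with an adjusted p below 0.05 (2) was 6 in DESeq2, 5 with the strict filter, 4 with the length covariate, 1 to 5 without each kidney in turn and 0 without the 2 control kidneys highest in adipose markers, a setting added after seeing the data. The number with p below 0.01 (6) was 5 with the length covariate, with the block on litter and in the fit of 12 kidneys. It was 5 or 6 without each kidney in turn, and *Egf* was the member lost wherever it was 5. Of all genes, 9.99% had p below 0.01 with the length covariate, 5.72% with the block and 5.81% in the fit of 12 kidneys, in either direction. In the main fit the share was 7.33%. For *let-7* KO, the number with an adjusted p below 0.05 (0) was 1 in DESeq2, and the number with p below 0.01 (1) was 2 in DESeq2, 2 with the replicate block, 0 with the length covariate, 2 in the fit of 12 kidneys and 0 to 3 without each kidney. The share of all genes called in *LIN28B Wt1* moved as well, from 1.23% to 7.89% in DESeq2 and 3.14% with the strict filter. In *let-7* KO, 2.73% of all genes had p below 0.01 in either direction in the main fit. That share was 5.45% in DESeq2 and 4.14% in the fit of 12 kidneys. It was 1.86% with the replicate block and 1.75% with the length covariate. The difference between the models (0 members) gave 1 in DESeq2, where 0.609% of all genes passed in either direction. The control comparison (1 member, *Pvalb*) gave 0 with the strict filter, which removes *Pvalb*, and 0 to 1 without each kidney. The block on litter also took *Egf* in *LIN28B Wt1* to p above 0.01, which left 5 members below it. Beside that loss and the gain of *Slc12a3* in *let-7* KO, it changed no other call. The causes of these shifts were not tested, apart from the genes and kidneys that a setting leaves out.

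Signs reversed as follows. In *LIN28B Wt1*, *Pvalb* was 0.16 without the adipose-high controls and -1.51 to 0.35 without each kidney, and *Bsnd* -0.15 to 0.11. In *let-7* KO, the length covariate gave *Slc12a1* 0.068, *Kcnj1* 0.30 and *Pvalb* -0.54, and leaving out kidneys gave *Kcnj1* -0.33 to 0.14, *Trpm6* -0.87 to 0.32 and *Pvalb* -0.24 to 0.31. The difference between the models ranged from -1.54 to 0.28 for *Pvalb*, -0.34 to 2.48 for *Egf* and -0.11 to 0.31 for *Calb1*. Between the control groups *Egf* was 0.038 with the replicate block, 0.081 with the length covariate and -0.95 to 0.45 without each kidney, and *Slc12a1* -0.10 to 0.38. In all, 576 fold changes, group levels and ratios were recomputed, and 522 counted as unchanged. For a fold change this means the same direction and side of the adjusted threshold. For a level or a ratio, which have no such threshold, it means a move smaller than the SD, and all of them met it. Of the fold changes, 14 moved past the threshold, 8 lost it and 32 changed sign. With 3 kidneys per group, changes in *Egf*, *Trpm6* and *Pvalb* were not resolved.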
